A study of Mus musculus with 3 samples.

Results

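The genes described here were Areg, Hbegf, Tgfa, Egfr, Hgf, Met, Myc and Ccnd1, a set of growth factors, receptors and early response genes of liver regeneration. They were taken by gene symbol, and all 8 were found among the 23361 genes of the mRNA tables. The mRNA of mouse liver had been sequenced in 3 libraries, 1 for each of the groups Sham, WI and IR, all from C57BL/6J mice of 8 to 10 weeks labelled as male. The mice had been fasted for 12 h, each group had 6 mice, and whether the library of a group was made from 1 mouse or from pooled RNA is not given in the sources used here. In Sham, the abdomen was opened without occlusion of vessels and the liver was taken after 90 min. In WI (warm ischemia), the portal triad to the left and median lobes was clamped for 90 min and the liver was taken at the end of the clamp. In IR (ischemia-reperfusion), the clamp of 90 min was followed by 2 h of reperfusion. No Sham library was taken at the time of the IR library, so reperfusion and the time since surgery cannot be told apart. With 1 library per group there are no biological replicates, no difference below has a replicate check, and no p-value was computed.

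After loss of liver tissue or injury, hepatocytes leave quiescence and enter the cell cycle under the drive of growth factors. HGF, made mainly by stellate and endothelial cells, acts through the receptor MET on hepatocytes, while amphiregulin, HB-EGF and TGF-alpha are made as membrane proteins, are shed and bind the EGF receptor. The transcription factor MYC is induced early in this response, and cyclin D1 marks the passage of hepatocytes through G1.

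Values are FPKM (fragments per kilobase of transcript, scaled to the mapped fragments of the library), which are per length and so allow levels of different genes to be set side by side. Each FPKM was deposited with a lower and an upper 95% bound, given here in brackets. These bounds come from the quantification model and hold no variation between mice. A difference between libraries is given as a difference of log2(FPKM + 1), a scale that understates the change of genes at low levels. A gene was called higher or lower where this difference reached 2-fold, among the 10792 genes that reached an FPKM of 1 in at least 1 library. Of the set, 7 genes were among these, and Areg, below 1 in every library, was not. Hbegf passed that filter through the IR library alone, the library in which it was highest, so its presence among the 7 is not independent of its difference. The same holds for every listed gene below that was under 1 in both Sham and WI. As a second description, it was recorded whether the bounds of a pair of libraries overlapped.

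The libraries did not all carry the sex given in their labels. Xist, the RNA of the inactive X chromosome of females, had an FPKM of 18.9 in Sham, 20.1 in WI and 1.29 in IR. The Y-linked genes showed the opposite. Eif2s3y was listed at 0 in Sham and WI and at 13.2 in IR, and Ddx3y was at 0 in Sham, 0.00849 in WI and 8.58 in IR. Kdm5d and Uty were listed at 0 in Sham and WI and at 0.669 and 1.28 in IR. The libraries labelled Sham and WI therefore go against the label male. In every comparison with the IR library, this difference and reperfusion cannot be told apart, while Sham and WI were alike in these genes. No library could be left out, since each is the only one of its group.

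The tissue label was checked against hepatocyte markers. The 10 markers summed to an FPKM of 27008 in Sham, 23291 in WI and 28287 in IR, and 9 of them were above 0 in all 3 libraries. The exception was Alb, listed at 0 in all 3 with a file status for loci holding too many fragments to be quantified, which is a failed estimate. Reads per gene are not in the files. Among genes under an FPKM of 0.15, whose values step by single fragments, the most frequent ratio of values was 0.905 for WI over Sham and 1.26 for IR over Sham. A single fragment thus counted for most in IR, the shallowest library by this measure. All 8 genes had a quantification status of OK in all 3 libraries.

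The 250 bases before the transcription start were searched on both strands for 5 short motifs: the cyclic AMP response element CRE (TGACGTCA), the AP-1 motif (TGANTCA), the E-box bound by MYC and related factors (CACGTG), a STAT motif (TTCNNNGAA) and a TATA motif (TATAAA). RefSeq (GRCm38.p6) gave these windows for 5 of the 8 genes, namely Areg, Tgfa, Egfr, Hgf and Met, and had no entry for Myc, Ccnd1 and Hbegf in the table used. Printed are 3 windows, because their genes stand for the ligands and for both receptors, all on the plus strand, 5′ to 3′, with motif matches in capitals. They lie at chr5:91139349-91139598 (Areg), chr11:16751953-16752202 (Egfr) and chr6:17463707-17463956 (Met).
Areg: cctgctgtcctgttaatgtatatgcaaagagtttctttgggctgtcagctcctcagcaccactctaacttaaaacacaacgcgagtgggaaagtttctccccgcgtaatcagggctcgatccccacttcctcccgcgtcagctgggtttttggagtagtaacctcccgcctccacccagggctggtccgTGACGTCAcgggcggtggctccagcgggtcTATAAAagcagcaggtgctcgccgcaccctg
Egfr: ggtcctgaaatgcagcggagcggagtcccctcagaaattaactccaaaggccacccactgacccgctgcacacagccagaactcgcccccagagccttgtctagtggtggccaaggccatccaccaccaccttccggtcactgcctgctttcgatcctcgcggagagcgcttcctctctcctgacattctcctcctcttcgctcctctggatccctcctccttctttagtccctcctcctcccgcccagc
Met: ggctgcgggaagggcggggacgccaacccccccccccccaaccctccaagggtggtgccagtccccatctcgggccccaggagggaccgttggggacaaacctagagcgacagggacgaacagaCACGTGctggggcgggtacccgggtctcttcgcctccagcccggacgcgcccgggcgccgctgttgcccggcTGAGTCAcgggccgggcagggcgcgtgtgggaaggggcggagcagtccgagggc
Distances are counted from the RefSeq start directly after each window, which for Areg lies before the gene start of 91139615 given below. The capitals in the Areg window mark a CRE match from 61 to 54 bases before the start and a TATA match from 31 to 26 bases before it. Among all 32851 windows of this length, 1.55% held the CRE letters and 12.4% the TATA letters. The capitals in the Met window mark an E-box match from 126 to 121 bases before the start, which 6.02% of all windows held, and an AP-1 match from 54 to 48 bases before it, held by 6.75%. The Egfr window had no match to any of the 5 motifs, and neither did the Tgfa window or the 2 windows of Hgf. The STAT letters, in 7.02% of all windows, were in none of the 5 genes. A match is a description of the letters only and was not tied to binding of a factor.

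Across the 3 comparisons, most calls in the set fell between IR and the other libraries. In WI against Sham, 0 of the 7 genes were at least 2-fold higher and 1 was at least 2-fold lower (Myc), where 0.751% and 1.10% of all 10792 genes were. In IR against WI, 3 were higher (Myc, Egfr and Hbegf) and 0 lower, where 5.78% and 1.43% of all genes were. In IR against Sham, 2 were higher (Egfr and Hbegf) and 0 lower, where 5.35% and 2.15% of all genes were. The bounds were a stricter description. They did not overlap for 0 of the 7 genes in WI against Sham, 1 in IR against WI (Myc) and 0 in IR against Sham, where they did not overlap for 0.676%, 3.61% and 3.82% of all genes. Every pair of these comparisons shares a library, so none of them is separate evidence. Both calls of Myc, in WI against Sham and in IR against WI, use its single WI value of 2.03.

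**Figure D1:**
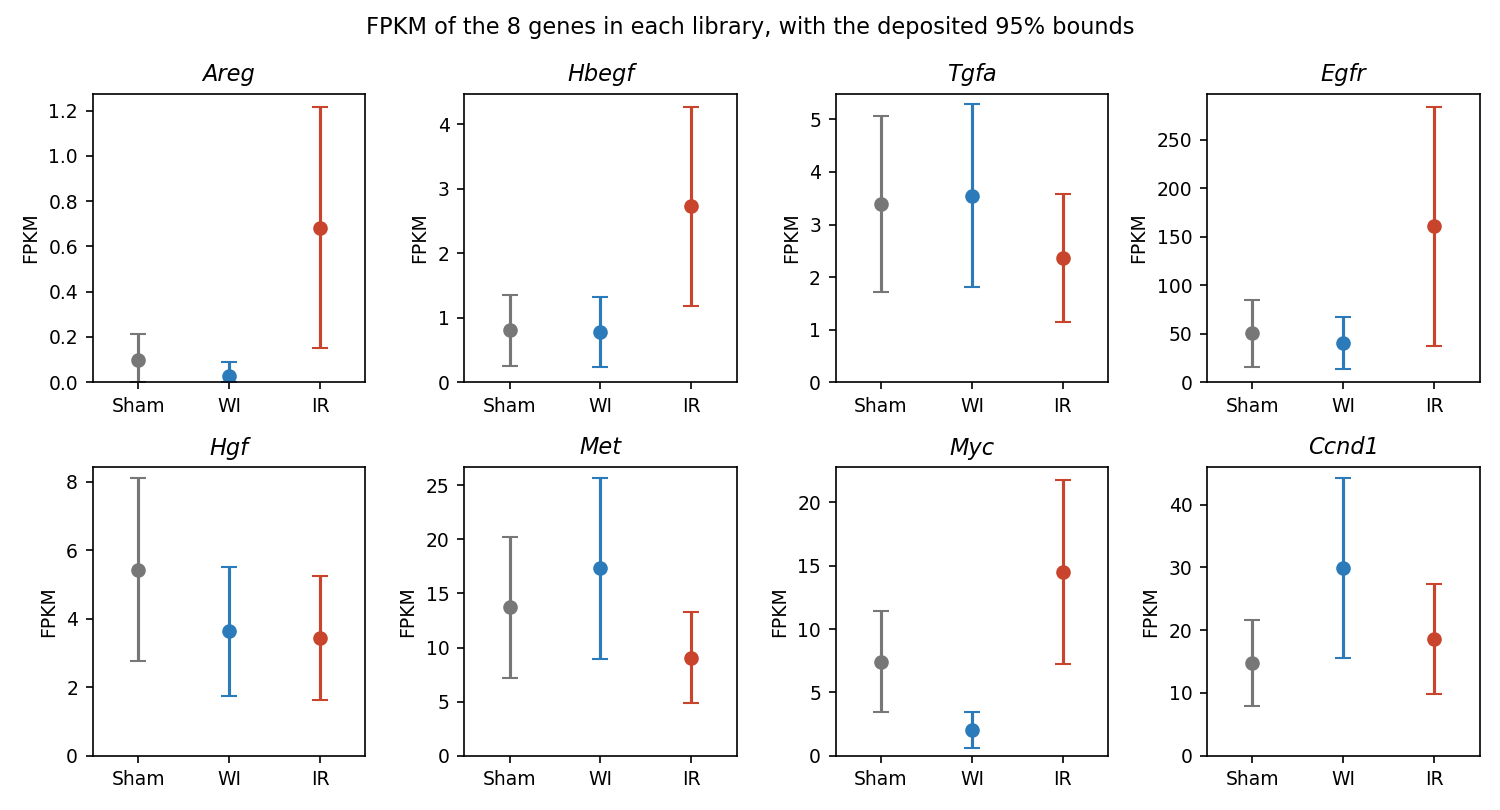
FPKM of the 8 genes in the Sham, WI and IR libraries, 1 panel per gene, each with its own axis from 0. Points are the deposited values and vertical lines their 95% bounds, which hold no variation between mice; Myc is lowest in WI and highest in IR, and Egfr is highest in IR with wide bounds.

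Areg encodes amphiregulin, a ligand of the EGF receptor (chr5:91139615-91148432, mm10). Its FPKM was 0.0963 [0 to 0.213] in Sham, 0.0286 [0 to 0.0902] in WI and 0.683 [0.152 to 1.21] in IR. The IR value was the highest, and its bounds lay above those of WI but overlapped those of Sham. On the scale of log2(FPKM + 1), IR differed from WI by 0.71 and from Sham by 0.62. Areg was below the FPKM of 1 used as the floor in all 3 libraries, and the WI and Sham values rest on very few fragments, so no fold is given.

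Hbegf encodes HB-EGF, a heparin-binding ligand of the EGF receptor (chr18:36504927-36515805). Its FPKM was 0.803 [0.249 to 1.36] in Sham, 0.781 [0.240 to 1.32] in WI and 2.73 [1.18 to 4.27] in IR. Sham and WI were nearly equal and IR was the highest, although its lower bound fell below the upper bounds of both others. The log2 difference was 1.07 for IR against WI and 1.05 for IR against Sham, just past 2-fold in both. When the FPKM of every library were scaled to the same total (TPM), these became 0.89 and 0.85, below the 2-fold limit. With median-of-ratios scaling, which uses the median ratio over genes, they were 1.04 and 1.01, past that limit.

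Tgfa encodes TGF-alpha, a ligand of the EGF receptor that hepatocytes can make during regeneration (chr6:86195251-86275449). Its FPKM was 3.40 [1.72 to 5.07] in Sham, 3.55 [1.81 to 5.29] in WI and 2.36 [1.14 to 3.58] in IR. IR had the lowest value and all 3 bounds overlapped. The log2 difference was -0.44 for IR against WI and -0.39 for IR against Sham, both within 2-fold, so Tgfa did not share the direction of Areg and Hbegf between these libraries.

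The makeup of the ligand transcripts differed accordingly. Summed over 7 genes for ligands of the EGF receptor (Areg, Hbegf, Tgfa, Btc, Ereg, Egf and Epgn), the FPKM was 4.92 in Sham, 5.28 in WI and 8.54 in IR. Tgfa made up 69.0% of that sum in Sham, 67.1% in WI and 27.7% in IR. Hbegf made up 16.3%, 14.8% and 31.9%, and Areg 1.96%, 0.541% and 8.00% in the same order. Hbegf was thus the most abundant ligand transcript in IR and Tgfa in both others, with overlapping bounds of Tgfa and Hbegf in IR. Btc, encoding betacellulin, was at 0.495 in Sham, 0.773 in WI and 1.96 in IR, a log2 difference of 0.98 between IR and Sham that stopped short of 2-fold. Egf itself was near 0 throughout, at 0.0816, 0.0667 and 0.0850.

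**Figure D2:**
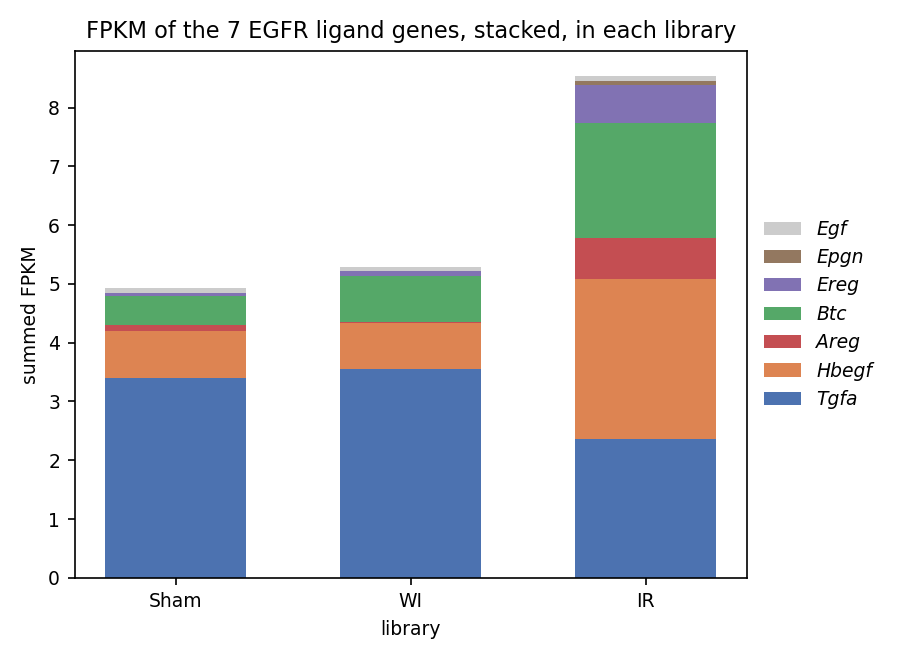
Summed FPKM of 7 genes for EGF receptor ligands in the Sham, WI and IR libraries, 1 stacked bar per library from 0, with a colour for each gene. Tgfa takes 69.0% of the Sham bar, 67.1% of the WI bar and 27.7% of the IR bar, and the IR bar is the tallest at 8.54.

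Egfr encodes the receptor of these ligands (chr11:16752203-16913907). Its FPKM was 50.5 [16.1 to 85.0] in Sham, 40.4 [13.3 to 67.5] in WI and 161 [37.2 to 284] in IR. It was the most abundant of the 8 transcripts in every library and highest in IR, but its bounds were wide and those of IR overlapped both others. FPKM + 1 was 3.90-fold higher in IR than in WI and 3.14-fold higher than in Sham, log2 differences of 1.96 and 1.65. Those differences were at the percentiles 98.3 and 98.0 of all 10792 genes. WI differed from Sham by -0.31, within 2-fold. After rescaling to TPM, the differences of IR were 1.43 and 1.08, still past 2-fold.

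Erbb3, a receptor of the same family with little kinase activity of its own, had an FPKM of 17.5 in Sham, 19.3 in WI and 10.8 in IR, so that the ratio of Egfr to Erbb3 was 2.89, 2.09 and 14.8. Nrg4, a ligand of another receptor of the family, was at 9.68, 6.22 and 8.53. Of the 10 listed genes for other ligands and receptors of the family, 3 passed the floor, and 0 of these 3 were past 2-fold in any comparison on the deposited scale. On the TPM scale, 1 of the 3 was lower in IR than in WI and 1 lower than in Sham, and with a pseudocount of 0.1 there was instead 1 higher in each. Their median log2 differences were 0.14 for WI against Sham, 0.40 for IR against WI and -0.17 for IR against Sham, beside 0.02, 0.03 and 0.05 over all genes.

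Genes that shed EGFR ligands or restrain EGFR were mostly within 2-fold. All 16 listed genes passed the floor, 0 were called in WI against Sham, and 1 was higher in each comparison with IR. Over all genes, 5.78% were higher in IR than in WI and 5.35% higher than in Sham. Rhbdf2, a partner of the ligand-shedding protease, was at 2.92 in Sham, 2.26 in WI and 6.63 in IR, a log2 difference of 1.23 between IR and WI and of 0.96 between IR and Sham. Lrig1, an inhibitor of EGFR, was at 4.28, 6.00 and 12.3, with 1.33 for IR against Sham. Neither gene stayed past 2-fold after rescaling to TPM, where 2 other genes of the list were lower in IR than in Sham. Errfi1, a feedback inhibitor of EGFR, was at 400.3, 266 and 396, with no call in any comparison. The median of the list was -0.14 in WI against Sham, 0.16 in IR against WI and 0.00 in IR against Sham.

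Hgf encodes hepatocyte growth factor (chr5:16553550-16619439). Its FPKM was 5.43 [2.75 to 8.11] in Sham, 3.63 [1.73 to 5.52] in WI and 3.43 [1.62 to 5.24] in IR. Sham was the highest, WI and IR were close, and all bounds overlapped. The log2 difference was -0.47 for WI against Sham, -0.06 for IR against WI and -0.54 for IR against Sham, none past 2-fold on the deposited scale. After rescaling to TPM, IR against Sham was at -1.10, which is past 2-fold. With median-of-ratios scaling it was at -0.59, within 2-fold. In bulk tissue, fewer cells of a type and less RNA per cell cannot be told apart. The summed FPKM of 10 stellate cell markers was 204 in Sham, 144 in WI and 146 in IR, with none at 0 in all 3 libraries, and that of 10 sinusoidal endothelial markers was 198, 153 and 147. Both sums were highest in Sham, as was Hgf, but their genes did not share 1 order. Dcn made up most of the stellate sum, at 130 in Sham, 91.2 in WI and 95.5 in IR. In IR, 4 of the 10 stellate markers (Col1a1, Col3a1, Pdgfrb and Des) were above their Sham value, 0 of them by 2-fold. Lrat, at 4.96, 4.12 and 1.46, and Colec11, at 33.9, 20.5 and 15.9, were at least 2-fold lower in IR than in Sham. Over all genes, 5.35% were higher and 2.15% lower in that comparison. Of the 10 endothelial markers, Lyve1 was the only 1 above its Sham value in IR, at 11.2, 2.73 and 33.4, with bounds apart. The median log2 difference of that list was -0.55 for IR against Sham. Besides Lyve1, called higher, 1 gene was called lower, Kdr, at 10.9, 9.45 and 4.80. The part of these cells in the values of Hgf was not tested.

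Met encodes the receptor of HGF (chr6:17463957-17573980). Its FPKM was 13.7 [7.22 to 20.2] in Sham, 17.3 [8.98 to 25.7] in WI and 9.04 [4.84 to 13.2] in IR. WI was the highest and IR the lowest, with overlapping bounds. The log2 difference was 0.31 for WI against Sham, -0.87 for IR against WI and -0.55 for IR against Sham. The difference between IR and WI was within 2-fold but at the percentile 2.38 of all genes. After rescaling to TPM, the differences of IR were -1.41 from WI and -1.12 from Sham, both past 2-fold. With median-of-ratios scaling they were -0.90 and -0.61, both within 2-fold. Met and Egfr were thus ordered oppositely over the libraries, and the ratio of Egfr to Met was 3.68 in Sham, 2.33 in WI and 17.8 in IR.

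Of the 15 listed genes that activate HGF or carry the MET signal, 10 passed the floor. None was called between WI and Sham (0 of 10), and 2 were higher in IR than in WI and than in Sham, with 0 lower. The shares of all genes higher in IR were 5.78% and 5.35% in the same order. Plaur, the urokinase receptor, was at 0.441 in Sham and WI and 10.1 in IR, with bounds apart and a log2 difference of 2.95 from both. Plaur is also abundant in neutrophils and other myeloid cells, whose markers are given below. Hgfac, the HGF activator of the plasma, was at 92.9 in WI and 98.7 in IR, log2 differences of 0.05 and 0.13 from Sham, and Mst1, a relative of HGF, was at 48.3 in Sham, 54.8 in WI and 58.6 in IR while its receptor Mst1r was at 0.0632, 0.0974 and 0.0490. The median of the list was 0.01, 0.12 and 0.24 in WI against Sham, IR against WI and IR against Sham.

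Myc encodes the transcription factor MYC (chr15:61985341-61990361). Its FPKM was 7.42 [3.42 to 11.4] in Sham, 2.03 [0.620 to 3.45] in WI and 14.5 [7.27 to 21.7] in IR. WI was the lowest and IR the highest. The bounds of IR lay above those of WI by 3.83, whereas those of Sham and WI just overlapped and those of Sham and IR overlapped widely. FPKM + 1 was 5.11-fold higher in IR than in WI, a log2 difference of 2.35 at the percentile 98.9 of all genes. WI was below Sham by a log2 difference of -1.47, at the percentile 0.371. IR exceeded Sham by 0.88 on the log2 scale, or 1.84-fold, within the 2-fold limit and at the percentile 93.3.

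Few genes followed Myc over the 3 libraries. By the Euclidean distance of the 3 centred log2 values, the nearest of 10791 other genes was Mup16 at 0.114, with an FPKM of 45.3 in Sham, 15.8 in WI and 76.8 in IR. The next were Acot2 at 0.138 and Nlrp12 at 0.159, and 5 genes lay within a distance of 0.2. Around Egfr 31 genes lay within that distance, led by AA986860, Arg2 and Bcl2l1, and around Hbegf 231 did, led by Trem1, Pwp2 and Nfkbib. AA986860, Arg2 and Trem1 were under 1 in both Sham and WI. Arg2 was at 0.364 in Sham, 0.103 in WI and 3.12 in IR, and Trem1 at 0.0988, 0.0795 and 1.28. At such levels the added 1 shapes the distance, so a small distance does not mean a like ratio of FPKM. Each likeness rests on 3 libraries only, and Mup16 has near-identical relatives among which reads may be shared.

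Of 19 listed genes of the MYC network, 17 passed the floor, with 0 called in WI against Sham and 2 higher and 0 lower in each comparison with IR, where 5.78% and 5.35% of all genes were higher than in WI and than in Sham. Mxd1, which competes with MYC for its partner MAX, was at 1.53 in Sham, 1.71 in WI and 6.03 in IR, and Pim1, a kinase that cooperates with MYC, was at 5.23, 4.48 and 27.5. For both the bounds of IR were apart from those of Sham and WI. Max was at 9.15, 8.78 and 11.7, with no call. Mycl1, the L-Myc gene, was lowest in IR, at 2.29, 2.48 and 0.846, within 2-fold. The median of the list was 0.02, 0.24 and 0.15 in WI against Sham, IR against WI and IR against Sham.

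Of 30 listed MYC target genes, mostly of ribosome biogenesis and metabolism, 29 passed the floor. Between WI and Sham, 0 of the 29 were called and their median log2 difference was 0.06 beside 0.02 for all genes, although Myc itself was lower in WI. In IR against WI, 10 were higher and 0 lower, with a median of 0.75 beside 0.03 and 25 of 29 above 0. In IR against Sham, 9 were higher and 0 lower, with a median of 0.72 beside 0.05 and 27 of 29 above 0. Over all genes, 5.78% and 5.35% were higher and 1.43% and 2.15% lower in these comparisons with IR. The nucleolar genes Nop58 and Gnl3 were at 7.31 and 8.79 in Sham, 7.02 and 9.70 in WI, and 32.6 and 31.6 in IR. Hspe1, the mitochondrial chaperonin HSP10, was at 187, 212 and 509. Counts of this list depended on the scaling. After rescaling to TPM, 3 targets were higher in IR than in WI and 2 higher than in Sham, with 0 lower, and the list median lay 0.69 and 0.63 above that of all genes.

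Ccnd1 encodes cyclin D1, the partner of CDK4 and CDK6 in G1 (chr7:144929931-144939925). Its FPKM was 14.8 [7.93 to 21.7] in Sham, 29.8 [15.5 to 44.2] in WI and 18.6 [9.90 to 27.3] in IR. WI was the highest and all bounds overlapped. The log2 difference of WI against Sham was 0.96, or 1.95-fold in FPKM + 1, just short of 2-fold and at the percentile 99.1 of all genes. It was 1.01 with a pseudocount of 0.1 and with none. IR differed from WI by -0.65 and from Sham by 0.31, and after rescaling to TPM by -1.20, past 2-fold, and by -0.24, with the sign turned. With median-of-ratios scaling these differences were -0.69 and 0.25, both within 2-fold. Myc and Ccnd1 were thus opposite in WI, where Ccnd1 had its highest and Myc its lowest value of the 3 libraries.

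**Figure D3:**
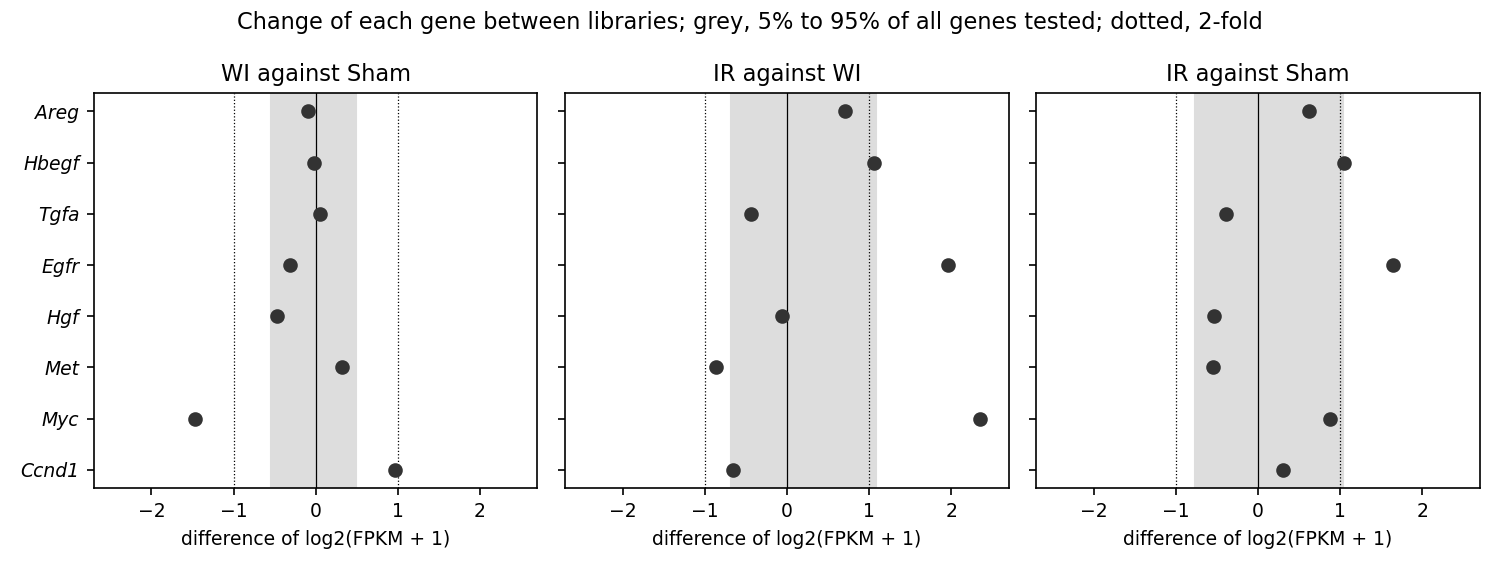
Difference of log2(FPKM + 1) for the 8 genes in WI against Sham, IR against WI and IR against Sham, 1 panel per comparison. Grey bands cover the range from the 5th to the 95th percentile of 10792 genes and dotted lines mark 2-fold; Myc lies at -1.47 in the first panel and 2.35 in the second.

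Other genes of the cell cycle were mostly within 2-fold, apart from the inhibitor Cdkn1a. Of 19 listed G1 cyclins, CDKs and their inhibitors, 15 passed the floor. Over all genes, 1.10% were lower in WI than in Sham, and 5.78% and 5.35% were higher in IR than in WI and than in Sham. In WI against Sham 0 of the 15 were higher and 1 lower. In IR against WI 1 was higher, and in IR against Sham 2 were higher, with 0 lower in both. The 2 calls against Sham ended after rescaling to TPM, which gave 0 higher and 1 lower, and 1 was higher with median-of-ratios scaling. Cdkn1a, encoding the CDK inhibitor p21, was at 21.5 in Sham, 0.619 in WI and 47.5 in IR, the same order as Myc. Its log2 differences were -3.80 for WI against Sham and 4.90 for IR against WI, both with bounds apart, and 1.11 for IR against Sham. Cdkn2d, another CDK inhibitor, was at 1.81, 2.16 and 4.81. The median of the list was 0.01, 0.10 and -0.06. Of 21 genes of S phase and mitosis, 16 passed the floor, and 0 were called in WI against Sham or IR against Sham. In IR against WI 2 were higher, where 5.78% of all genes were. The 2 were Ccnb2, a mitotic cyclin at 0.944, 0.338 and 2.34, and Birc5, encoding survivin, at 1.55, 0.852 and 2.79. On the TPM scale, 1 gene of this list was lower in WI than in Sham, 2 were lower in IR than in Sham and 1 was higher in IR than in WI. Medians of this list were -0.24, 0.44 and 0.28.

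Genes of the priming phase, the early cytokine-driven response that precedes growth factor signalling, included 9 higher in IR than in WI. Of 22 listed, 19 passed the floor. In WI against Sham 2 were higher and 2 lower, in IR against WI 9 were higher and 0 lower, and in IR against Sham 9 were higher and 1 lower. Over all genes, 0.751%, 5.78% and 5.35% were higher and 1.10%, 1.43% and 2.15% lower in the same comparisons. After rescaling to TPM, 7 priming genes were higher in each comparison with IR, with 0 lower than in WI and 2 lower than in Sham. Socs3, the feedback inhibitor of IL-6 signalling, was at 3.14 in Sham, 5.38 in WI and 109 in IR, and Atf3, a stress-induced transcription factor, was at 8.72, 5.76 and 114. Their bounds in IR were apart from those of Sham and WI. The median of the list was -0.03, 0.93 and 0.90 beside 0.02, 0.03 and 0.05 over all genes. Of 14 genes listed under growth inhibitors, 12 passed the floor, with 0 higher and 1 lower in WI against Sham. The list holds inhibitors and also antagonists of them, such as Fst. Its counts and medians therefore give no direction of growth inhibition. In IR against WI 3 were higher and 1 lower, and in IR against Sham 3 were higher and 2 lower. The shares of all genes given for the priming genes apply here too. Fst, encoding the activin antagonist follistatin, was at 1.26, 1.07 and 18.3. Inhbb, an activin subunit, was at 1.43, 0.557 and 9.67. Socs1, an inhibitor of cytokine signalling, was at 0.424, 0.400 and 4.49. List medians were -0.11, -0.11 and -0.31, below 0 although more genes were called higher than lower in both comparisons with IR. After rescaling to TPM, 4 and 6 genes of this mixed list were lower in those comparisons, and 3 genes of the MYC network were lower in each. On that scale 1185 and 1554 of all 10792 genes were lower in the same comparisons.

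The FPKM of all genes summed to 475754 in Sham, 487912 in WI and 712423 in IR. The status that marked Alb as a failed estimate was held by 1 gene in Sham, 1 in WI and 7 in IR. Rescaling to TPM moved the median of all genes to -0.45 in IR against WI and in IR against Sham, so the sign of a small list median in these comparisons is relative to the scale. Counts of lower genes in the lists after this rescaling are relative to it in the same way. The medians of the MYC target genes, at 0.23 and 0.17, and of the priming genes, at 0.40 and 0.33, were above 0 on that scale too. Those of the MYC network, the HGF and MET list and the EGFR shedding and feedback list were below 0 in both comparisons, and that of the S phase and mitosis genes was 0.07 and -0.13. With median-of-ratios scaling the median of the EGFR shedding and feedback list in IR against Sham was -0.06.

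**Figure D4:**
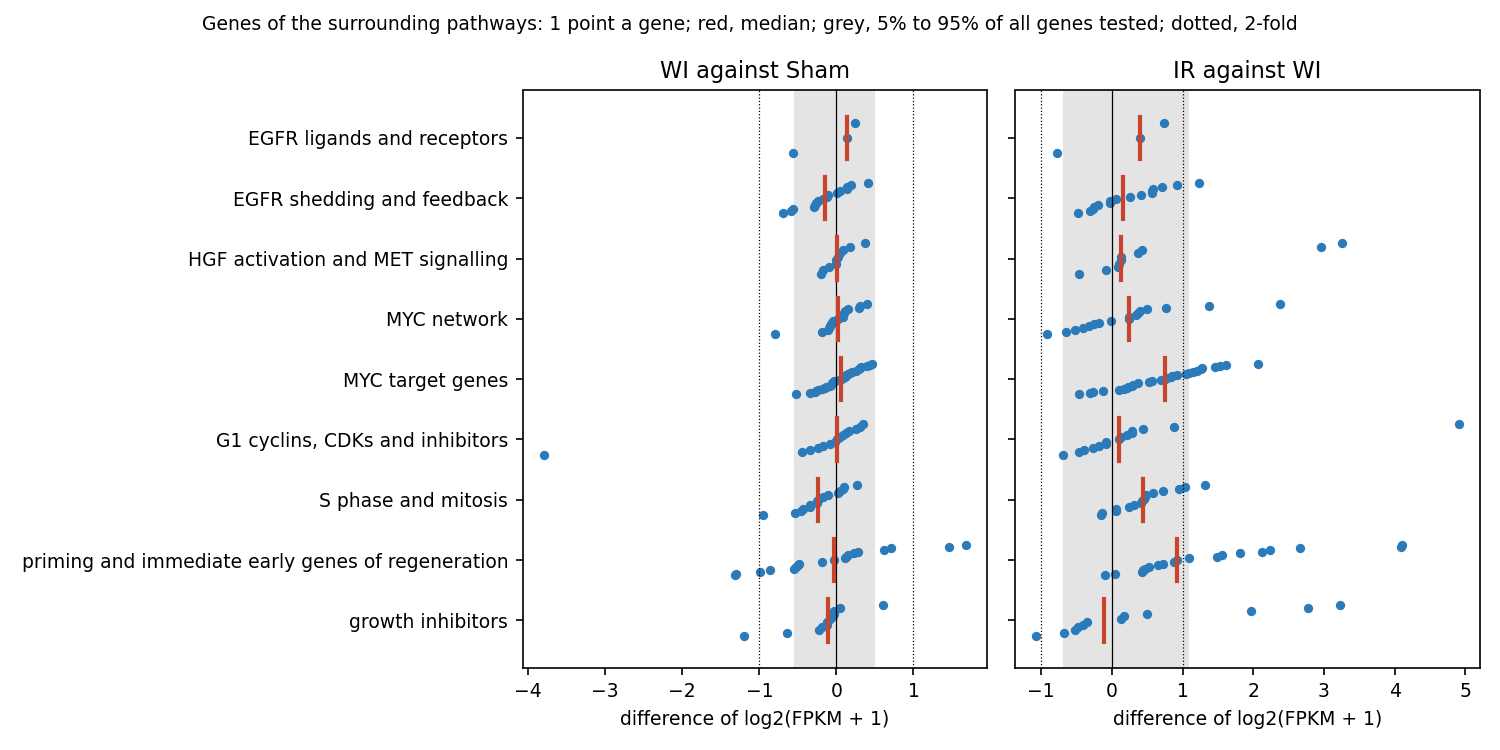
Difference of log2(FPKM + 1) for each gene of 9 pathway lists in WI against Sham and IR against WI, 1 point per gene, with the list median in red and the range from the 5th to the 95th percentile of all genes in grey. The priming genes and the MYC target genes have the highest medians in IR against WI, 0.93 and 0.75, and their medians in WI against Sham are -0.03 and 0.06.

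Blood cell markers differed between the same libraries. The summed FPKM of 9 neutrophil markers was 26.1 in Sham, 20.0 in WI and 471 in IR, mostly from S100a8 and S100a9. The 7 that passed the floor were at least 2-fold higher in IR than in both others. Over all genes, 5.78% were higher in IR than in WI and 5.35% higher than in Sham. However, 3 of these 7 markers, Mmp8, Cxcr2 and Ngp, passed the floor through IR alone, and the other 2 of the list, Mmp9 and Camp, were below it. Erythroid markers, of which 7 were in the tables, summed to 751, 518 and 1976. Macrophage markers were highest in Sham and lowest in IR, with sums of 628, 335 and 236 over 9 genes. Between IR and Sham, 6 of these 9 were at least 2-fold lower in IR, where 2.15% of all genes were, and 1 was above its Sham value. Lymphocyte markers summed to 10.7, 8.20 and 3.84. Cholangiocyte markers were at 57.4, 66.9 and 99.1, mostly from Spp1 at 51.8, 58.7 and 86.7. None of these lists held a gene at 0 in all 3 libraries. The neutrophil, erythroid and cholangiocyte sums, and the hepatocyte sum given above, were highest in the same library as Hbegf, Egfr, Areg and Myc. The part of these cells in the values of those 4 genes was not tested.

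Within each library, Egfr was followed by Ccnd1, and Areg was the lowest of the 8. In Sham the order was Egfr, Ccnd1, Met, Myc, Hgf, Tgfa, Hbegf and Areg, and the bounds separated neighbours only between Tgfa and Hbegf and between Hbegf and Areg. In WI it was Egfr, Ccnd1, Met, Hgf, Tgfa, Myc, Hbegf and Areg, with Met apart from Hgf and Hbegf apart from Areg. In IR it was Egfr, Ccnd1, Myc, Met, Hgf, Hbegf, Tgfa and Areg, with only Egfr apart from its neighbour. Myc stood below Tgfa in WI and above Met in IR, a shift of more places than for any other of the 8 genes between those libraries.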

How the data were processed

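Livers of 3 groups (Sham, WI and IR) were sequenced as 1 mRNA library each. Per the submitters' processing notes and the methods of the study, reads were aligned to the mouse genome mm10 with TopHat2 2.0.9 and quantified with Cufflinks 2.0.2. The authors deposited, for each library, FPKM per gene with its lower and upper 95% bounds and a status. Starts in the files count from 0 and are given here from 1. Because files hold no counts and groups no replicates, no count test and no test between groups was made, and the fragments behind each value are not known. From the deposited FPKM, differences of log2(FPKM + 1) were computed in Python 3.11.15 with numpy 2.4.6 and pandas 2.3.3 for the 10792 genes that reached an FPKM of 1 in 1 or more of the 3 libraries, and called at 2-fold. Scripts were tested on simulated data. Alternatives were a pseudocount of 0.1 or none, no filter or FPKM of at least 1 in all libraries, TPM, median-of-ratios scaling, folds of 1.5 and 4, and the bounds.

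All 8 genes were named. From each list at most 3 genes were named, those with the largest absolute difference between IR and Sham, plus Egf, Erbb3, Errfi1, Mst1, Mst1r, Hgfac and Max and the sex-linked genes. Alb, Ereg, Epgn, Birc5, Spp1, some stellate markers (Dcn, Col3a1, Pdgfrb, Des) and some neutrophil markers (Mmp8, Cxcr2, Ngp, Mmp9, Camp) were named outside this rule, after their values were seen. The genes and lists were chosen with earlier results of these data known. A gene that this rule names is not reported here.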

Additional observations from a re-analysis of the deposited data

How the results depend on the processing

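Of the 8 genes, 1 was past 2-fold in WI against Sham, 3 in IR against WI and 2 in IR against Sham. In WI against Sham this became 2 with a pseudocount of 0.1, with no pseudocount or at 1.5-fold, Ccnd1 being added as higher, and 0 at 4-fold or where bounds must not overlap. In IR against WI it became 5 at 1.5-fold (Ccnd1 and Met added as lower) and 1, Myc, at 4-fold or by the bounds. With an FPKM of at least 1 in all libraries it became 2, Myc and Egfr. In IR against Sham it became 3 at 1.5-fold (Myc added as higher), 1, Egfr, with an FPKM of at least 1 in all libraries, and 0 at 4-fold or by the bounds. Median-of-ratios scaling left the counts at 1, 3 and 2. TPM gave 4 in IR against WI and 3 in IR against Sham. It put the median of all genes at -0.45 in both and turned the calls over all genes from 624 higher and 154 lower to 385 and 1185, and from 577 and 232 to 319 and 1554. In WI against Sham TPM gave 95 and 181 in place of 81 and 119. Without a pseudocount the all-gene calls were 157 and 278, 875 and 434, and 819 and 661, with a pseudocount of 0.1 they were 135 and 247, 854 and 385, and 803 and 626, and by the bounds 21 and 52, 347 and 43, and 291 and 121. At 1.5-fold they were 339 and 461, 1333 and 799, and 1548 and 1024, and at 4-fold 7 and 17, 175 and 19, and 141 and 25. Fewer or more calls at another fold follow from the threshold, and for the other settings the cause was not tested. No replicate could be left out and no paired analysis was possible because each group has 1 library. Depth limits Areg most, which was below the floor in every library.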
